A study of Rattus norvegicus with 53 samples.

Results

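Day-60 serum of the lymphopenic BB rat (DRlyp/lyp) was compared with day-60 serum of its non-lymphopenic counterpart (DR+/+), each applied to blood cells of an unrelated healthy strain, over 14217 genes. The 8 arrays were taken by their titles from the 53 of the study: 4 replicates with DRlyp/lyp serum and 4 with DR+/+ serum, paired by replicate number. All cultures used fresh peripheral blood mononuclear cells (PBMCs), isolated on a Ficoll density gradient, of healthy male Brown Norway (BN) rats, described as 180 days old for the cultures, held for 6 h in the added serum (20% is given for the autologous BN plasma). The labels call the additive serum in some places and plasma in others, and rats with blood glucose above 250 mg/dl were left out of the pre-diabetic studies. A fast of 16 h is given for both groups. Each array was made from 6 ug of total RNA. Both groups therefore share the responding cells, the strain of the donors, the time in culture and the age of the serum donors, and differ in the BB line that gave the serum. Both sera were foreign to the responding cells.

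In BB rats the lyp allele is a loss of function of Gimap5, a GTPase of the lymphocyte endosome and lysosome that peripheral T cells need to survive. Rats homozygous for it have few T cells and develop autoimmune diabetes, whereas DR+/+ rats have normal T cell numbers and remain free of spontaneous diabetes when kept free of pathogens. In the assay used here, healthy PBMCs act as a sensor of the cytokines, hormones and metabolites of the added serum, so the mutation lies in the serum donors and not in the cells measured.

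The labels do not say whether a replicate number stands for a separate serum donor, a separate PBMC donor or a culture day, so the p-values below measure the spread between these arrays only. Markers of the labelled cells were found in all 8 arrays, with Cd3e (T cells) at log2 8.43 to 10.55, Ms4a1 (B cells) at 9.65 to 10.91, Lyz2 (monocytes) at 12.31 to 12.81 and Klrd1 (natural killer cells) at 9.48 to 10.48. Other listed markers were lower, such as Itgam (monocytes) at 5.59 to 6.43 and Ncr1 (natural killer cells) at 3.89 to 4.99. Ncr1 lay below the median level of every array (5.36 to 5.53). Cd79a and Pax5, which also define B cells, had no probe set among the named ones. Platelet Pf4 lay at 13.35 to 13.73, red cell Hbb at 14.21 to 14.36 and red cell Alas2 at 11.09 to 13.68, so the preparations also carried RNA of platelets and red cells. In such bulk samples fewer cells of a type and less RNA per cell cannot be told apart.

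One array stood apart from the other 7. DR+/+ replicate 4 correlated with the others at a mean Pearson r of 0.941, against 0.973 to 0.978 for each other array. Its difference between 3′ and 5′ actin control probe sets was 1.13 log2 units, the smallest of these arrays. This difference is a sign of RNA integrity and labelling, and a larger value goes with less intact RNA. The same difference was 2.14 to 2.46 in the DRlyp/lyp arrays and 2.37 to 2.83 in the other DR+/+ arrays. By cell markers, DR+/+ replicate 4 had the highest neutrophil mean of the DR+/+ arrays (7.75, against 5.35 to 6.36). That mean used only S100a8, S100a9 and Camp, since Mpo and Elane had no probe set among the named ones. Camp stayed low on all arrays, at 4.59 to 5.20. The same array had the lowest erythroid mean of its group (10.13, against 11.46 to 11.77) and the lowest platelet mean (8.81, against 9.71 to 10.54). It also had the lowest mean of B cell markers (Ms4a1 and Cd79b, 8.05, against 9.06 to 9.91), natural killer markers (7.25, against 7.75 to 8.52) and T cell markers (8.94, against 9.31 to 10.19), while its monocyte mean of 8.29 lay within the 8.13 to 8.70 of the others. The part of RNA state or cell mixture in the results was not tested. Counts of called genes are given below both with all 4 pairs, where the paired fit without a covariate called 0, and without replicate 4.

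**Figure D1:**
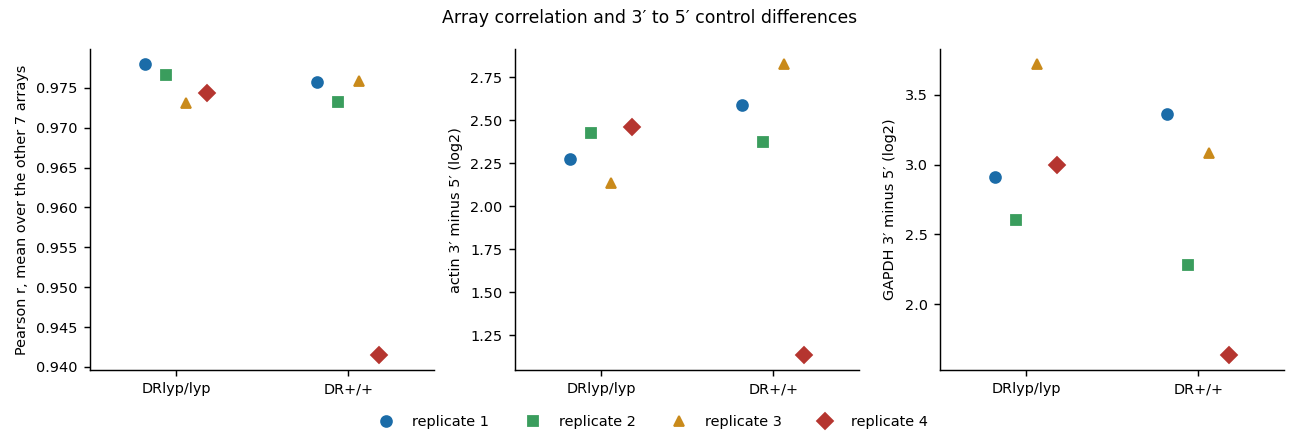
Mean Pearson r with the other 7 arrays (left) and log2 difference between 3′ and 5′ probe sets of actin (middle) and GAPDH (right), 1 point per array, with replicate numbers by marker. DR+/+ replicate 4 is lowest in each panel, at 0.941, 1.13 and 1.63.

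No probe set passed the test when all 4 pairs were used. The paired limma fit called 0% of 31042 probe sets at an adjusted p under 0.05, and the smallest adjusted p was 0.683. At an unadjusted p under 0.05 there were 2249 probe sets, 7.25% of those tested, of which 1083 were higher and 1166 lower with DRlyp/lyp serum. Over genes, 654 were higher at that level (4.6%) and 418 lower (2.94%). The median gene differed by 0.03 on the log2 scale, and 14 genes had a mean difference beyond 1 log2 unit, 6 higher and 8 lower. The 95% interval of the difference lay within 1 log2 unit of 0 on both sides for 12892 genes, or 90.7%.

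The count turned on replicate 4. Without that pair the same fit called 2131 probe sets (6.86%), 856 higher and 1275 lower, whereas leaving out replicate 1, 2 or 3 left 0 called. In the unpaired fit 0 were called, with 872 at an unadjusted p under 0.05, and with only DR+/+ replicate 4 left out of it 0 were called again. With the actin difference as a covariate and all 4 pairs kept, 995 probe sets were called, 591 of them also called without replicate 4 and all 591 in the same direction. Both fits use pairs 1 to 3, and the actin difference between serum groups was largest in pair 4 (1.33). The shared direction is therefore not an independent result. Genes named below from all 4 pairs were refitted on pairs 1 to 3 of the same arrays. Their adjusted p without pair 4 is thus a description and not independent support. Replicate 4 was singled out because it differed, so those adjusted p-values do not hold their stated error rate.

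**Figure D2:**
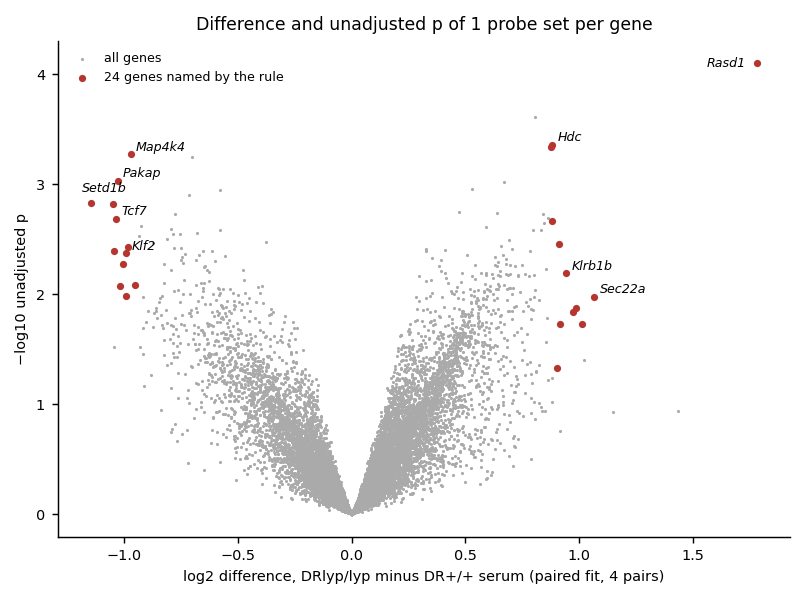
Log2 difference (DRlyp/lyp minus DR+/+ serum, horizontal) against −log10 of the unadjusted p of the paired fit on 4 pairs (vertical), 1 grey point per gene and 24 rule-named genes in red. Rasd1, at 1.78, lies farthest to the upper right, and no gene passed an adjusted p under 0.05.

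Rasd1 had the smallest p of the comparison and the largest gene difference. It encodes a small Ras-related GTPase first known as induced by dexamethasone. Its level was 8.37, 8.16, 8.31 and 8.10 with DRlyp/lyp serum in replicates 1 to 4, against 6.98, 5.68, 6.59 and 6.55 with DR+/+ serum. The groups did not overlap, and replicate 2 of DR+/+ was the lowest array. The mean was 8.24 ± 0.13 with DRlyp/lyp serum and 6.45 ± 0.55 with DR+/+ serum (log2, SD, n = 4 each), a difference of 1.78 (limma SE 0.217, 95% interval 1.27 to 2.30), or 3.44-fold, with an unadjusted p of 7.94e-05 and an adjusted p of 0.683. Without pair 4 the difference was 1.86 at an adjusted p of 0.00804, with the actin covariate the adjusted p was 0.00861, and with array weights it was 0.0824.

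Set beside the other cultures, the DR+/+ arrays had the lowest group mean of Rasd1, 6.45. DRlyp/lyp serum with added interleukin-1 receptor antagonist (IL-1RA) gave Rasd1 a mean of 8.24 ± 0.21 (SD, n = 4), autologous BN serum 8.25 ± 0.72 (n = 10) and allogeneic BN serum 8.24 ± 0.74 (n = 15), close to the 8.24 of DRlyp/lyp serum. The BN serum cultures spread widely, with Rasd1 from 6.37 to 8.75 in the autologous and from 6.60 to 8.998 in the allogeneic arrays, so their lowest arrays overlapped the DR+/+ range. In day-40 serum of DRlyp/lyp rats given saline the Rasd1 mean was 7.38 ± 0.23, and in that of rats given IL-1RA it was 8.12 ± 0.31 (SD, n = 6 each). These other cultures were pooled without regard to array run and were not compared with the DR+/+ arrays by a test here. Which serum group was the unusual one was therefore not tested.

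The other genes with the largest differences among those at an unadjusted p under 0.05 and higher in all 4 pairs were Sec22a, Fis1, Ly6c, Pfdn5, Klrb1b, Ramp3, Vps28, Tk1, Hdc, Mcpt1l1 and Parm1. A gene was higher in all 4 pairs for 12.1% of all genes, and 599 genes met both conditions and the naming rule. The adjusted p of these 11 lay between 0.683 and 0.684, so none passed. Hdc makes histamine from histidine, and its level was 7.22, 6.88, 6.70 and 7.09 with DRlyp/lyp serum, against 6.25, 5.95, 6.04 and 6.11 with DR+/+ serum. All 4 DRlyp/lyp arrays lay above all 4 DR+/+ arrays, the difference was 0.88 (SE 0.141), and Hdc passed without pair 4 (0.85, adjusted p 0.0117).

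Parm1, a mucin-like membrane protein, showed as even a difference. It measured 7.32, 7.21, 6.93 and 7.19 with DRlyp/lyp serum, against 6.29, 6.34, 6.11 and 6.41 with DR+/+ serum, again without overlap, at a difference of 0.88 (SE 0.142). Mcpt1l1, named for its likeness to a mast cell protease, differed by 0.88 and stayed at low levels, 5.08 to 5.78 with DRlyp/lyp serum and 4.24 to 4.69 with DR+/+ serum. Parm1 passed without pair 4 (adjusted p 0.00938), as did Mcpt1l1 (adjusted p 0.0223). All 4 DRlyp/lyp arrays lay above all DR+/+ arrays for 1.44% of genes.

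For several of the others the difference was smaller without pair 4. Sec22a, of the vesicle traffic between endoplasmic reticulum and Golgi, was 8.27, 7.57, 7.40 and 7.42 with DRlyp/lyp serum, against 7.003, 7.11, 7.01 and 5.26 with DR+/+ serum. Its difference of 1.07 became 0.70 without pair 4. Fis1, of mitochondrial fission, was 1.01 higher with all pairs and 0.57 without pair 4, and Tk1, the thymidine kinase of dividing cells, 0.90 and 0.38. Pfdn5, a prefoldin subunit, was 0.97 higher and 0.59 without pair 4, Vps28, a subunit of an endosomal sorting complex, 0.91 and 0.72, and the surface protein gene Ly6c 0.99 and 0.64. These genes passed without pair 4, at adjusted p of 0.0444 (Sec22a), 0.0253 (Fis1), 0.0492 (Tk1), 0.0267 (Pfdn5), 0.0169 (Vps28) and 0.0474 (Ly6c). Ramp3, which partners calcitonin-type receptors, was 0.92 higher and 0.60 without pair 4 and passed in neither fit. Tk1 had 3 probe sets, 1 of which pointed the other way.

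On the other side, the largest differences among genes lower in all 4 pairs (7.22% of all genes) belonged to Setd1b, Arid1b, Znrf3, Tcf7, Pakap, Zbtb34, Cic, Elk3, Klf2, Dpysl2, Map4k4 and Tbc1d16, chosen from 349 that met the rule. With all pairs the adjusted p was 0.683 for each of them, and without pair 4 each of them fell at an adjusted p under 0.05. Both fits share the remaining pairs, on which these genes were also chosen, so the second is not independent support. Setd1b, a histone methyltransferase of active promoters, had 6.46, 6.41, 5.26 and 5.65 with DRlyp/lyp serum, against 7.70, 8.30, 5.88 and 6.49 with DR+/+ serum. The groups overlapped, since replicates 3 and 4 were low in both, and every pair differed the same way, by -1.15 on average (SE 0.226). Arid1b, a subunit of the BAF chromatin remodeller, was 8.50, 8.82, 9.41 and 8.98 with DRlyp/lyp serum, against 9.80, 9.78, 9.91 and 10.41 with DR+/+ serum, with no overlap and a difference of -1.05.

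Map4k4, a stress-signalling kinase, had the smallest p among the lower 12. Its levels were 7.98, 8.24, 8.00 and 7.51 with DRlyp/lyp serum, against 8.96, 9.13, 8.92 and 8.61 with DR+/+ serum, a difference of -0.97 (SE 0.161, unadjusted p 0.000534) without overlap. Its adjusted p without pair 4 was 0.00817. Pakap, a scaffold of protein kinase A, differed by -1.03 and Cic, a transcriptional repressor downstream of growth factor signalling, by -1.004, both without overlap between groups. Elk3, an ETS-family transcription factor, differed by -0.99, also without overlap. Znrf3, a ubiquitin ligase that dampens Wnt signalling, differed by -1.04, Zbtb34, a zinc finger protein, by -1.02, Dpysl2, of the cytoskeleton, by -0.98 and Tbc1d16, a regulator of Rab GTPases, by -0.95, with groups that overlapped. Arid1b, Pakap and Klf2 had further probe sets that pointed the other way. All 4 DRlyp/lyp arrays lay below all DR+/+ arrays for 0.724% of genes.

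**Figure D3:**
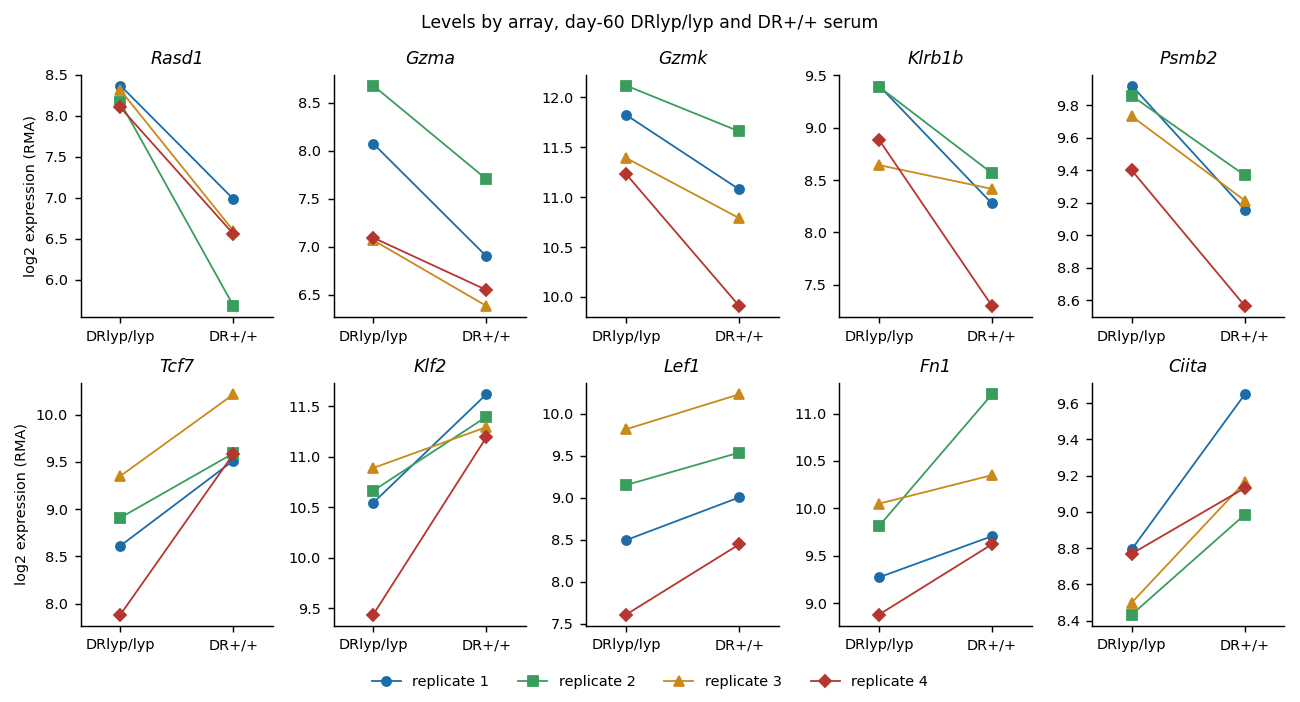
RMA log2 expression of 10 genes, DRlyp/lyp serum left and DR+/+ serum right in each panel, with a line joining arrays of 1 replicate number; each panel has its own vertical scale. Rasd1, Gzma, Gzmk, Klrb1b and Psmb2 are higher with DRlyp/lyp serum in all 4 pairs, and Tcf7, Klf2, Lef1, Fn1 and Ciita lower in all 4.

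In the T cell list the smallest p-values belonged to the transcription factors Tcf7, Bcl11b and Lef1, each with a lower mean with DRlyp/lyp serum. Tcf7, which keeps T cells in a naive or memory state, was 8.61, 8.91, 9.35 and 7.88 with DRlyp/lyp serum, against 9.51, 9.59, 10.21 and 9.58 with DR+/+ serum. The groups did not overlap and the difference was -1.04 (SE 0.218, adjusted p 0.683), and without pair 4 it was -0.82 at an adjusted p of 0.00912. Its partner Lef1 differed by -0.54 and passed without pair 4 (adjusted p 0.0464), whereas Bcl11b, of T cell identity, differed by -0.92, was equal in pair 3 at 10.57 in each array to 2 decimals, and did not pass in either fit (0.0581 without pair 4).

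Klf2, which holds T cells in quiescence and drives their exit from lymphoid organs, was 10.54, 10.66, 10.89 and 9.43 with DRlyp/lyp serum, against 11.62, 11.40, 11.29 and 11.19 with DR+/+ serum. These groups did not overlap, with a difference of -0.99 (SE 0.238), and Klf2 fell at an adjusted p of 0.0152 without pair 4. Il7r, the receptor for the survival cytokine interleukin-7, went the other way by 0.49 and rose without pair 4 (0.57, adjusted p 0.0248); it was chosen after its values were seen. Of the 20 T cell genes measured, 2 were higher and 3 lower at an unadjusted p under 0.05 (4.6% and 2.94% of all genes). In all 4 pairs 6 were higher and 4 lower (12.1% and 7.22% of all genes), and their median was 0.13, beside 0.03 for all genes. Without replicate 4, Il7r was called higher and Tcf7 and Lef1 lower, beside 4.49% and 3.69% of all genes. The mean of the 6 defining T cell markers was 9.15 to 10.27 in DRlyp/lyp arrays and 8.94 to 10.19 in DR+/+ arrays, higher in every pair by 0.15 on average (exact sign-flip permutation test, two-sided p 0.125, the smallest that 4 pairs allow).

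In the list of granule and receptor genes of cytotoxic lymphocytes, 13 of 17 measured genes had a difference above 0 and 4 below. Over all 14217 genes, 8004 were above 0 and 6213 below. None of the 17 passed with all pairs. Of the 17, 6 were higher at an unadjusted p under 0.05 and 0 lower (4.6% and 2.94% of all genes), 8 were higher in all 4 pairs and 0 lower (12.1% and 7.22% of all genes), and the median was 0.27. Gzma, a serine protease of killer cell granules, was 8.08, 8.68, 7.07 and 7.10 with DRlyp/lyp serum, against 6.90, 7.71, 6.38 and 6.55 with DR+/+ serum. The groups overlapped because replicates 1 and 2 were high in both, and the mean of the paired differences was 0.84 (SE 0.174), or 1.80-fold, and 0.94 without pair 4 (adjusted p 0.01).

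Gzmk, another granzyme, measured 11.83, 12.12, 11.39 and 11.23 with DRlyp/lyp serum, against 11.08, 11.66, 10.79 and 9.91 with DR+/+ serum. It was higher in each pair by 0.78 on average (SE 0.186), and it rose without pair 4 by 0.60 (adjusted p 0.0118). Gzmb, the granzyme that activates caspases, was 5.82, 5.73, 5.27 and 5.47 with DRlyp/lyp serum, against 4.69, 4.83, 4.85 and 5.22 with DR+/+ serum. Its groups did not overlap, and it rose without pair 4 by 0.82 (adjusted p 0.0186).

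Among receptors, Klrb1b, a natural killer receptor of the CD161 family, is not a member of the cytotoxic list and was named for its large difference. Klrb1b was 9.40, 9.39, 8.64 and 8.89 with DRlyp/lyp serum, against 8.28, 8.57, 8.42 and 7.30 with DR+/+ serum, also without overlap (0.94, and 0.73 without pair 4 at an adjusted p of 0.0325). Klrg1, an inhibitory receptor of experienced killer cells chosen after its values were seen, was 9.97 to 10.62 with DRlyp/lyp serum and 9.12 to 9.95 with DR+/+ serum, and rose without pair 4 by 0.82 (adjusted p 0.00855). Ccl5, a chemokine stored in such cells, was 11.62 to 11.72 with DRlyp/lyp serum and 11.04 to 11.44 with DR+/+ serum. Ccl5 differed by 0.47, and rose without pair 4 by 0.43 (adjusted p 0.0301). Nkg7, a granule protein, differed by 0.85 and by 0.46 without pair 4 (adjusted p 0.0476).

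Other defining markers of natural killer cells did not share this. Prf1, the pore-forming protein, was 10.30, 10.52, 9.45 and 9.90 with DRlyp/lyp serum, against 10.29, 10.35, 9.70 and 7.92 with DR+/+ serum, so that its mean difference of 0.48 was -0.02 without pair 4. Klrd1 differed by -0.02 and Ncr1 by -0.10, with 95% intervals of -0.56 to 0.52 (Klrd1) and -0.51 to 0.30 (Ncr1). Ncr1 stayed at 3.89 to 4.99, below the median level of every array. The mean of the 5 defining markers was 7.84 to 8.82 in DRlyp/lyp arrays and 7.25 to 8.52 in DR+/+ arrays, higher in each pair (by 0.40, 0.29, 0.09 and 0.86; exact sign-flip permutation test, two-sided p 0.125). Of the list, 6 genes were called higher without replicate 4 and 0 lower, beside 4.49% of all genes called higher and 3.69% lower.

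Subunits of the proteasome, which degrades tagged proteins and yields peptides for MHC class I, were the list with the highest median. Of 24 measured, 10 were higher at an unadjusted p under 0.05, 14 were higher in all 4 pairs, 0 were lower by either count, and the median difference was 0.48. Of all genes 4.6% were higher at that p and 12.1% in all 4 pairs. The medians by pair were 0.44, 0.29, 0.31 and 0.78, so pair 4 was the largest and all 4 were above 0. Psmb2, a subunit of the catalytic core, was 9.92, 9.86, 9.73 and 9.40 with DRlyp/lyp serum, against 9.16, 9.37, 9.21 and 8.56 with DR+/+ serum.

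Those Psmb2 groups did not overlap, and the difference was 0.65 (SE 0.168), and 0.59 without pair 4 (adjusted p 0.0207). Psmb7 differed by 0.71 and Psmb1 by 0.62, and of these Psmb1 passed without pair 4 (adjusted p 0.0278) and Psmb7 did not (0.0561). Psma2, a subunit of the outer ring chosen after its values were seen, was higher in pairs 1 to 3 and lower in pair 4, with 10.08, 9.76, 9.43 and 8.53 for DRlyp/lyp serum, against 8.99, 8.89, 8.41 and 9.45 for DR+/+ serum. The interferon-inducible subunit Psmb8 differed by 0.49 and by 0.27 without pair 4 and passed in neither fit. Without replicate 4, 8 proteasome genes were called higher and 0 lower, beside 4.49% and 3.69% of all genes, and the median was 0.33, beside 0.04 for all genes.

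Nuclear-encoded subunits of the respiratory chain followed. Of 23 measured, 4 were higher and 0 lower at an unadjusted p under 0.05, 8 were higher and 0 lower in all 4 pairs, and the median was 0.35, or 0.27 without pair 4, where 5 were called higher and 0 lower. The shares of all genes were 4.6% and 2.94% at that p, 12.1% and 7.22% in all 4 pairs, and 4.49% and 3.69% called without replicate 4. Ndufs3, of complex I, was 9.39, 9.06, 9.56 and 8.46 with DRlyp/lyp serum, against 8.64, 8.66, 9.06 and 7.28 with DR+/+ serum, a difference of 0.71 (0.55 without pair 4, adjusted p 0.0304). Sdhb, of complex II, differed by 0.59 and passed without pair 4 (adjusted p 0.0328), and Ndufb8 by 0.34 and did not (0.253).

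In glycolysis and hypoxia response, 4 of 24 genes were higher and 1 lower at an unadjusted p under 0.05 (4.6% and 2.94% of all genes), with a median of 0.11. Ldha, which makes lactate, was 11.34, 11.44, 11.30 and 10.92 with DRlyp/lyp serum, against 10.65, 10.83, 10.98 and 9.25 with DR+/+ serum. The single overlap was between DRlyp/lyp replicate 4 and DR+/+ replicate 3, the difference was 0.82, and Ldha rose without pair 4 by 0.54 (adjusted p 0.0201). Pdk1, which holds pyruvate out of the mitochondrion, differed by 0.59 (0.66 without pair 4, adjusted p 0.019) on 1 of its 2 probe sets, the other pointing the opposite way. Bnip3, of mitophagy, differed by 0.49 and passed in neither fit (0.0706 without pair 4). Without replicate 4, Ldha and Pdk1 were called higher and 0 of the list lower, beside 4.49% and 3.69% of all genes. The 14 measured genes of the cytosolic ribosome all had differences above 0, beside 8004 of 14217 over all genes. The ribosomal median was 0.11, and 0 of the 14 were at an unadjusted p under 0.05. Without replicate 4, Rps24 of that list, chosen after its values were seen, was called higher (0.53, adjusted p 0.0193) and was lower in pair 4.

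Immediate early genes are the transcription factors first induced by a stimulus. Of 24 measured, 0 were higher and 5 lower at an unadjusted p under 0.05 (4.6% and 2.94% of all genes), 0 were higher and 7 lower in all 4 pairs (12.1% and 7.22%), and the median was -0.11. Egr1 was 6.94, 7.11, 8.01 and 7.51 with DRlyp/lyp serum, against 7.91, 7.81, 8.29 and 7.92 with DR+/+ serum, a difference of -0.59 that was -0.65 without pair 4 (adjusted p 0.0354). The groups overlapped through DRlyp/lyp replicate 3, the highest of its group. Klf4, a factor of monocyte differentiation and quiescence, differed by -0.87, was slightly higher in pair 3 (7.85 with DRlyp/lyp serum, 7.78 with DR+/+ serum), and passed in neither fit (0.104 without pair 4). Without replicate 4, 4 genes of the list were called lower and 0 higher, beside 3.69% and 4.49% of all genes. They were Klf2, Egr1 and, chosen after their values were seen, Junb (-0.61, adjusted p 0.0351) and Ier2 (-0.58, adjusted p 0.0384), both of which were higher in pair 4.

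Targets of the glucocorticoid receptor were mixed. Of 17 measured, 4 were higher and 0 lower at an unadjusted p under 0.05 (4.6% and 2.94% of all genes), 3 were higher and 1 lower in all 4 pairs (12.1% and 7.22%), and the median was 0.10. Besides Rasd1 these were Il1r2, Nfkbia and Sgk1. Nfkbia, the inhibitor of NF-kappaB, was 11.65, 11.36, 10.50 and 9.91 with DRlyp/lyp serum, against 10.69, 10.73, 10.44 and 9.32 with DR+/+ serum, a difference of 0.56 that passed in neither fit (0.058 without pair 4). Sgk1, a kinase of ion transport and survival chosen after its values were seen, was 9.27, 9.67, 9.06 and 8.54 with DRlyp/lyp serum, against 8.09, 8.40, 8.72 and 8.66 with DR+/+ serum. Sgk1 was lower in pair 4 alone and rose without it by 0.93 (adjusted p 0.0191). Without replicate 4 the list median was 0.32, with 4 genes called higher and 1 lower, beside 4.49% and 3.69% of all genes. Besides Rasd1, Il1r2 and Sgk1 these were Anxa1, the annexin that dampens inflammation (0.73, adjusted p 0.0169), and, lower, the stress gene Ddit4 (-0.76, adjusted p 0.0301), both chosen after their values were seen and both opposite in pair 4.

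Interleukin-1 signals through a receptor that needs an accessory chain, and it is held back by the antagonist Il1rn and by the decoy receptor Il1r2. Of the 20 family genes measured, 1 was higher and 0 lower at an unadjusted p under 0.05 (4.6% and 2.94% of all genes), with a median of -0.01. Il1b was 9.79, 9.91, 9.20 and 9.05 with DRlyp/lyp serum, against 9.36, 9.36, 9.13 and 9.74 with DR+/+ serum, overlapping throughout. Its difference of 0.09 had a 95% interval of -0.49 to 0.67, and without pair 4 it was 0.35 and did not pass (adjusted p 0.133). Il1rn differed by -0.04 (95% interval -0.34 to 0.27). Without replicate 4, 2 genes of the family, Il1r2 and Il18, were called higher and 0 lower, beside 4.49% and 3.69% of all genes. The cytokine gene Il18, chosen after its values were seen, was 9.23, 9.15, 8.26 and 8.02 with DRlyp/lyp serum, against 8.40, 8.63, 7.77 and 9.18 with DR+/+ serum, and rose without pair 4 by 0.62 (adjusted p 0.0249).

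The decoy receptor Il1r2 was the family gene at an unadjusted p under 0.05. It measured 8.67, 8.41, 7.82 and 7.08 with DRlyp/lyp serum, against 7.81, 7.68, 7.03 and 6.999 with DR+/+ serum. The ranges overlapped, each pair was higher, the difference was 0.61 (SE 0.192, adjusted p 0.683), and Il1r2 rose without pair 4 by 0.79 (adjusted p 0.0115). The accessory chain gene Il1rap differed by 0.23 and passed in neither fit, and its other probe set pointed the other way.

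Chemokine and NF-kappaB genes gave no passing difference with all pairs. Ccl2, which draws monocytes, was 8.26, 7.35, 7.28 and 7.03 with DRlyp/lyp serum, against 6.95, 7.75, 7.01 and 9.21 with DR+/+ serum. Its difference of -0.25 had a 95% interval of -1.44 to 0.95 and turned to 0.39 without pair 4, where it did not pass either. Ccl4 differed by 0.37 and Ccl3 by 0.33, each higher in all 4 pairs, and neither passed in either fit. Of 13 CC chemokine genes 2, Ccl5 and Ccl6, were called higher and 0 lower without replicate 4, beside 4.49% and 3.69% of all genes. Ccl6, a chemokine of myeloid cells chosen after its values were seen, was 10.19, 9.98, 9.62 and 9.68 with DRlyp/lyp serum, against 9.49, 9.21, 9.04 and 10.68 with DR+/+ serum. It rose without pair 4 by 0.68 (adjusted p 0.0125) and was lower in pair 4.

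Of 19 NF-kappaB genes, 1 was higher and 0 lower at an unadjusted p under 0.05 (4.6% and 2.94% of all genes), and the median was 0.03. Without replicate 4, 2 were called higher and 5 lower, beside 4.49% and 3.69% of all genes. Relb, of the noncanonical arm and chosen after its values were seen, fell by 1.10 without pair 4 (adjusted p 0.0225), and its pair 4 went the other way, at 8.18 with DRlyp/lyp serum and 6.70 with DR+/+ serum. Of 29 interferon response genes 0 were at an unadjusted p under 0.05, and 0 were called without replicate 4. Likewise 0 of 25 genes for cytokines and CXC chemokines were at that level, with 1 called higher without replicate 4, beside 4.49% of all genes. It was the prostaglandin synthase gene Ptgs2, chosen after its values were seen (0.40, adjusted p 0.0407, at levels of 2.75 to 3.46 on all arrays and lower in pair 4).

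Antigen presentation and B cell genes differed in both directions. Ciita, the master activator of MHC class II genes, was 8.79, 8.43, 8.50 and 8.77 with DRlyp/lyp serum, against 9.65, 8.99, 9.16 and 9.13 with DR+/+ serum. The groups did not overlap, the difference was -0.61 (SE 0.173), and Ciita fell by 0.69 without pair 4 (adjusted p 0.0163). Ctss, the protease that trims the invariant chain, was 0.52 higher without overlap and did not pass without pair 4 (0.0616). The 10 class II genes measured had medians by pair of 0.00, -0.16, -0.13 and 1.06, so their overall median of 0.22 rested on pair 4 and was -0.02 without it. The mean of the B cell markers differed by 0.46, 0.17, -0.14 and 1.58 in the same pairs, and its part in these results was not tested. The B cell kinase Blk differed by -0.50 and fell by 0.58 without pair 4 (adjusted p 0.0346), while the B cell surface gene Ms4a1 differed by 0.47 and did not pass (0.0723). Of 10 B cell genes 1 was called higher and 1 lower without replicate 4, beside 4.49% and 3.69% of all genes. The higher one, the complement receptor gene Cr2, chosen after its values were seen, was 8.53, 8.15, 8.57 and 8.58 with DRlyp/lyp serum, against 7.93, 7.30, 7.85 and 8.99 with DR+/+ serum. Cr2 rose without pair 4 by 0.72 (adjusted p 0.0161) and was lower in pair 4.

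In monocytes and macrophages, 1 of 24 genes was higher and 2 were lower at an unadjusted p under 0.05 (4.6% and 2.94% of all genes), with a median of 0.04. Cebpb, a myeloid transcription factor, was 7.61, 7.42, 7.61 and 7.62 with DRlyp/lyp serum, against 7.91, 7.70, 8.18 and 8.17 with DR+/+ serum. It was lower by 0.42 without overlap and passed in neither fit. The pore-forming protein gene Mpeg1 differed by -0.67, with a further probe set pointing the other way, and the scavenger receptor gene Cd36 by 0.39, and neither passed in either fit. Without replicate 4, 2 genes were called higher and 0 lower (4.49% and 3.69% of all genes), both chosen after their values were seen and both lower in pair 4. Adgre1, a macrophage surface marker, was 5.66, 5.13, 5.76 and 5.47 with DRlyp/lyp serum, against 4.88, 4.56, 5.07 and 6.56 with DR+/+ serum (0.68 without pair 4, adjusted p 0.0169). Ctsl, a lysosomal protease, was 7.81, 7.61, 8.03 and 7.02 with DRlyp/lyp serum, against 7.01, 7.16, 7.63 and 8.05 with DR+/+ serum (0.55 without pair 4, adjusted p 0.0411), and its other probe set pointed the other way.

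Fn1, the matrix protein fibronectin, was 9.27, 9.81, 10.05 and 8.88 with DRlyp/lyp serum, against 9.71, 11.20, 10.35 and 9.62 with DR+/+ serum. The ranges overlapped. Its paired difference was -0.72, lower in each pair, and it fell by 0.71 without pair 4 (adjusted p 0.0492). Mmp14, a membrane collagenase, was 6.08, 7.48, 6.08 and 6.46 with DRlyp/lyp serum, against 7.30, 8.39, 7.55 and 6.16 with DR+/+ serum, lower in pairs 1 to 3 and higher in pair 4, with a difference of -1.20 without pair 4 (adjusted p 0.00809). The other probe set of Mmp14 lay near 0. Of 19 matrix and adhesion genes Anxa1 was called higher and Fn1 and Mmp14 lower without replicate 4, beside 4.49% and 3.69% of all genes. Nod1, a sensor of bacterial cell wall, differed by -0.45 and the neutrophil receptor gene Csf3r by -0.42, and neither passed in either fit.

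Genes of redox defence, nutrient stress and lipid handling showed small differences. Akr1b8, an aldo-keto reductase, differed by -0.07 (95% interval -0.77 to 0.63), Nqo1, a quinone reductase, by -0.28 (-0.72 to 0.17) and Hmox1, the haem-degrading enzyme, by 0.18 (-0.26 to 0.62). Gclc, of glutathione synthesis, was 6.96 to 7.28 with DRlyp/lyp serum and 6.66 to 6.79 with DR+/+ serum, 0.38 higher without overlap, and passed in neither fit (0.108 without pair 4). Of 17 redox and heat shock genes 1 was called lower and 0 higher without replicate 4 (3.69% and 4.49% of all genes). The lower one was the autophagy receptor gene Sqstm1, chosen after its values were seen. Sqstm1 was 10.72, 10.78, 10.38 and 10.17 with DRlyp/lyp serum, against 11.20, 11.09, 11.19 and 7.55 with DR+/+ serum, fell by 0.53 without pair 4 (adjusted p 0.0277) and was 2.62 higher in pair 4.

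Slc7a5, the large neutral amino acid transporter chosen after its values were seen, was 6.86, 7.02, 6.82 and 7.002 with DRlyp/lyp serum, against 8.08, 7.75, 8.11 and 5.05 with DR+/+ serum. Slc7a5 fell by 1.08 without pair 4 (adjusted p 0.00878) and was 1.95 higher with DRlyp/lyp serum in pair 4. Of 20 genes of endoplasmic reticulum and amino acid stress 1 was called higher and 3 lower without replicate 4 (4.49% and 3.69% of all genes). Besides Slc7a5 and Ddit4 these were Sesn2, of nutrient sensing (-0.56, adjusted p 0.0304), and, higher, the stress factor gene Ddit3 (0.46, adjusted p 0.0382), each chosen after its values were seen and opposite in pair 4. The amino acid stress genes Slc7a1 (-0.64) and Chac1 (-0.43) and the fatty acid synthase gene Fasn (-0.51) were lower and passed in neither fit, whereas the desaturase gene Scd2 (-0.52) fell without pair 4 (adjusted p 0.0376), with 2 of its 4 probe sets pointing the other way. In the sterol list 0 of 16 genes were at an unadjusted p under 0.05.

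Of the damage and death genes, Gadd45a, a growth arrest gene of the DNA damage response, was 9.58, 9.32, 9.38 and 9.09 with DRlyp/lyp serum, against 8.45, 8.84, 8.53 and 8.22 with DR+/+ serum. The groups did not overlap, the difference was 0.83 (SE 0.182), and Gadd45a rose without pair 4 by 0.82 (adjusted p 0.0156). Plk2, a kinase of the same response, differed by 0.41 without overlap and did not pass (0.0687). Bbc3, a pro-apoptotic BCL-2 family gene, was 7.61, 7.69, 7.45 and 7.54 with DRlyp/lyp serum, against 8.72, 8.63, 8.00 and 7.54 with DR+/+ serum, and fell by 0.87 without pair 4 (adjusted p 0.013). Over the 18 genes of this list 4 were higher and 1 lower at an unadjusted p under 0.05 (4.6% and 2.94% of all genes), with a median of 0.05. Lgals9, a lectin that restrains T cells, was 0.77 higher without overlap and did not pass (0.0576 without pair 4).

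In the remaining lists few genes stood out. Of 25 cell cycle genes 0 were at an unadjusted p under 0.05, with a median of 0.08. Without replicate 4, 1 of the 25 was called higher, beside 4.49% of all genes. It was the replication clamp gene Pcna, chosen after its values were seen (0.66, adjusted p 0.0103, lower in pair 4). Of 11 regulatory T and T helper genes 0 were at that level (median 0.02), and of 15 immune regulators and coreceptors only Lgals9 was (median 0.05). Among 11 pattern and Fc receptors Nod1 was, with a median of 0.03, and among 11 neutrophil genes Csf3r was, with a median of 0.00. Neither of these lists had a gene called without replicate 4, and their medians in pair 4 were -0.34 for each. DR+/+ replicate 4 also had the highest neutrophil mean of its group, and its part in these medians was not tested. For 22 genes of lipid handling the median was -0.07.

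The GIMAP genes of the responding BN cells, which carry no lyp allele, did not pass. Gimap5 itself was 9.91, 10.39, 10.25 and 9.15 with DRlyp/lyp serum, against 9.62, 10.03, 9.96 and 8.90 with DR+/+ serum. It was higher in each pair, by 0.30 on average (95% interval -0.07 to 0.67). Gimap4 differed by 0.26, Gimap6 by 0.02, Gimap7 by -0.03 and Gimap1 by -0.08, and the Gimap1 value turned to 0.50 without pair 4.

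Platelet and red cell genes differed most in pair 4. The 16 platelet genes had medians by pair of 0.21, 0.17, -0.18 and 1.14, and a median of 0.28 with all pairs and 0.04 without pair 4. Gp9 (0.55) and Ppbp (0.40), of the platelet surface and granules, and Mmrn1 (0.57), a carrier of clotting factor V, passed in neither fit. Among 13 erythroid genes, Rhag, of the Rh complex, was 5.02 to 5.24 with DRlyp/lyp serum and 4.59 to 4.72 with DR+/+ serum and rose without pair 4 by 0.49 (adjusted p 0.0382), and Klf1, the erythroid master factor, differed by -0.52 and passed in neither fit. Without replicate 4, 1 erythroid gene was called higher and 2 lower (4.49% and 3.69% of all genes), and the lower ones were chosen after their values were seen. The red cell anion exchanger gene Slc4a1 was 8.12, 9.42, 7.58 and 9.71 with DRlyp/lyp serum, against 9.92, 9.88, 9.49 and 6.77 with DR+/+ serum, and fell by 1.39 without pair 4 (adjusted p 0.0144). Epb41, of the red cell membrane skeleton, fell by 0.64 without pair 4 (adjusted p 0.0293), and both were higher in pair 4. The mean of the erythroid markers was lower with DRlyp/lyp serum in pairs 1 to 3, by 0.71, 0.19 and 0.58, and higher by 1.26 in pair 4. The same pairs had actin 3′ to 5′ differences of -0.31, 0.05, -0.69 and 1.33 between serum groups.

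**Figure D4:**
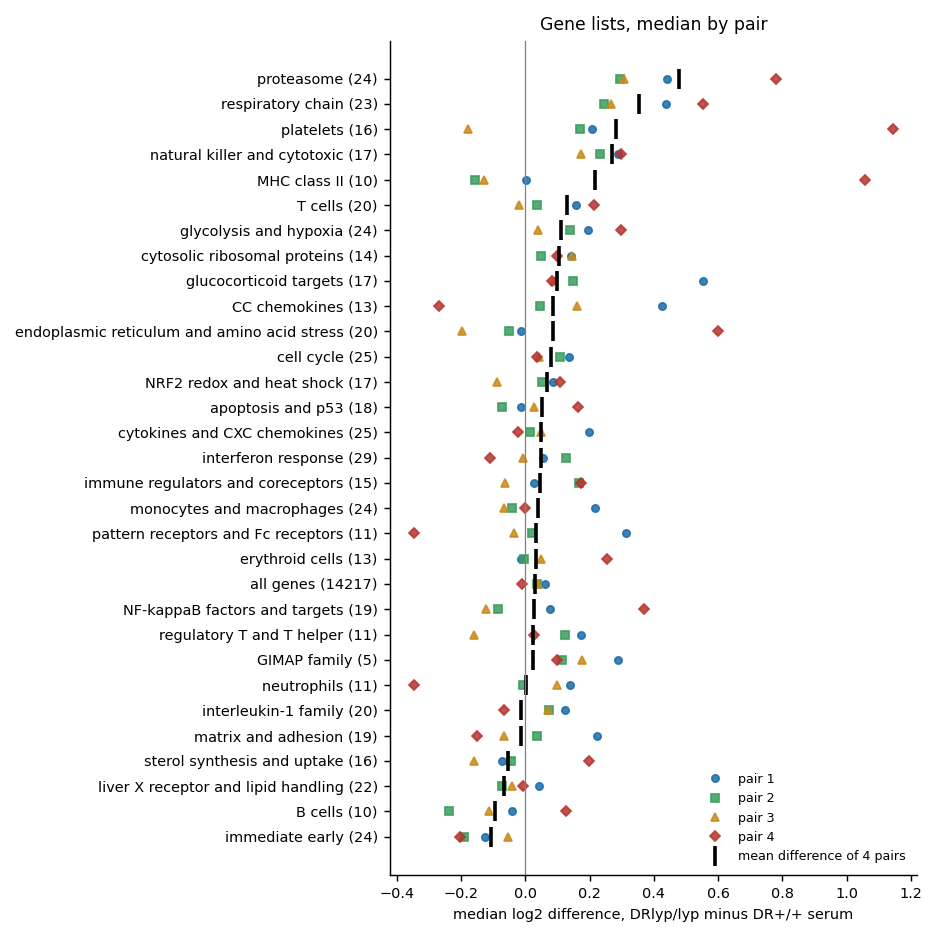
Median log2 difference (DRlyp/lyp minus DR+/+ serum) of each gene list by replicate pair, with the number of genes measured in brackets and a black bar for the median of the mean differences. The proteasome, respiratory chain and natural killer lists have all 4 pairs above 0, and the platelet and MHC class II lists have pair 4 at 1.14 and 1.06.

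Across all probe sets, pair 4 did not follow the other pairs. Over the 31042 probe sets tested, with several for some genes, the pair differences correlated at 0.55 (pairs 1 and 2), 0.48 (1 and 3) and 0.31 (2 and 3). Pair 4 correlated at -0.10, -0.06 and -0.38 with pairs 1, 2 and 3. This is a description across probe sets, which are not replicates. The spread of pair 4 was also wider, with an SD over probe sets of 0.652, against 0.381, 0.313 and 0.350. Of the 639 genes called higher without replicate 4, 441 were lower with DRlyp/lyp serum in pair 4, and of the 524 called lower, 390 were higher in it. Out of 14217 genes, 183 called higher and 129 called lower had the same sign in pair 4 and an unadjusted p under 0.05 with all pairs. The call and that p both use pairs 1 to 3, so these counts are not an independent result.

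The 639 genes called higher and the 524 called lower without replicate 4 differed in annotated length, a property the fit did not use. The median length in the rat RefSeq annotation was 14.8 kb for the 639 and 30.4 kb for the 524, beside 22.3 kb for all genes. In the shortest of 5 equal bins of genes, up to 7.13 kb, 182 of the genes called higher and 62 of those called lower were found, and in the longest bin, from 69.2 kb, 61 and 143. The median difference in the shortest bin was 0.12, 0.05, 0.07 and 0.05 in pairs 1 to 4, and in the longest bin 0.00, 0.00, 0.03 and -0.12. The part of RNA state in this pattern was not tested.

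**Figure D5:**
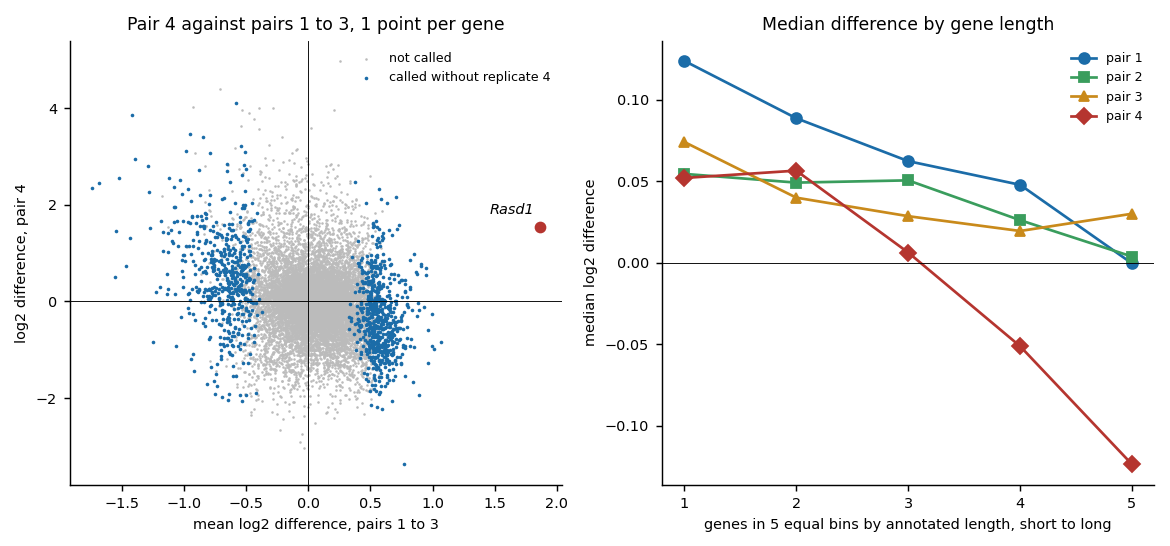
Left, log2 difference of pair 4 (vertical) against the mean of pairs 1 to 3 (horizontal), 1 point per gene, with genes called without replicate 4 in blue; Rasd1 (red) is higher in both. Right, median log2 difference by bin of annotated gene length (5 equal bins) for each pair, from 0.12 in the shortest bin of pair 1 to -0.12 in the longest of pair 4.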

How the data were processed

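RNA of each culture was hybridised to an Affymetrix rat expression array. Per the submitters' processing notes, the deposited log2 values came from RMA, a method of background correction, normalisation and probe summary, and from Partek 6.2. What Partek did is not given in the sources used here. Differences near background are compressed by RMA, and precision is limited by the number of arrays.

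Of the 31099 probe sets deposited, 57 were controls and 31042 were tested. A single gene symbol was available for 20826 of them, more than 1 for 436 and none for 9780, without genome coordinates. The rat RefSeq gene table held the symbols of 20758 and updated 0. A gene stands for its probe set of highest mean across all 53 arrays.

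The comparison was fitted with limma 3.58.1 in R 4.3.3 on the 8 arrays, with the replicate number as a block and variances following a trend on mean expression. The p-values were adjusted by Benjamini-Hochberg over all probe sets, with a call at an adjusted p under 0.05, and p-values of genes in the text are limma's. Deviations from the group means correlated between same-numbered arrays at 0.175 to 0.605 (other array pairs averaged -0.12 and reached 0.281 and 0.177, the last just above the 0.175 of pair 4), each above 0.1, so the numbers were taken as pairs. The highest correlation between arrays was 0.996, and 0 arrays were duplicates. The fit was tested on simulated data, and figures used matplotlib 3.10.9.

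The members, the 30 gene lists and the naming rule were chosen with earlier results of these data known. The rule named the 12 largest increases and 12 largest decreases that went the same way in all 4 pairs at an unadjusted p under 0.05, up to 3 genes of each list, the genes that define cell types, and Il1b, Il1rn, Il1r2, Akr1b8, Ccl2, Nqo1, Hmox1 and the GIMAP genes. Alternatives were no block, other sets of arrays, leaving out each replicate, a second quantile normalisation, median centring, a filter on low values, no variance trend, array weights and the actin difference as a covariate.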

Additional observations from a re-analysis of the deposited data

Results flagged for a closer look

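In groups of 4 arrays, 1 array lay far from the other 3 in 20 of 224 combinations. These joined each group with a named gene or with the actin or GAPDH 3′ to 5′ difference, and all 20 were genes. For genes picked without sight of their values, chance gives about 1 in 20. Some of the named genes were chosen after their values were seen, so the count cannot be set against that rate. Of these 20, 11 were DR+/+ replicate 4. That array was low for Sec22a (5.26, others 7.003 to 7.11), Vps28 (6.82, others 8.21 to 8.41), Tk1 (8.66, others 10.52 to 10.77), Psmb8 (9.38, others 10.96 to 11.07), Slc7a5 (5.05, others 7.75 to 8.11), Slc4a1 (6.77, others 9.49 to 9.92), Ddit4 (6.50, others 7.84 to 7.97), Sqstm1 (7.55, others 11.09 to 11.20) and Ier2 (8.51, others 10.12 to 10.37). It was high for Elk3 (10.13, others 9.47 to 9.55) and Gimap1 (9.50, others 8.04 to 8.16).

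The other 9 were spread over 5 arrays. DRlyp/lyp replicate 3 was high for Znrf3 (6.76, others 4.61 to 4.88), Dpysl2 (8.71, others 7.48 to 7.62) and Gimap4 (7.78, others 6.74 to 6.90). DRlyp/lyp replicate 1 was high for Psmb7 (10.24, others 9.84 to 9.89) and DRlyp/lyp replicate 2 low for Cebpb (7.42, others 7.61 to 7.62) and Cr2 (8.15, others 8.53 to 8.58). DRlyp/lyp replicate 4 was low for Ptgs2 (2.86, others 3.24 to 3.28). DR+/+ replicate 3 was high for Tcf7 (10.21, others 9.51 to 9.59) and low for Ddit3 (8.59, others 9.50 to 9.57).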

How the results depend on the processing

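With all 4 pairs, 0 probe sets were called with limma, and 0 under no block, all 53 arrays, the 12 day-60 arrays, quantile normalisation, median centring, the filter, no variance trend, array weights, or at an adjusted p under 0.1 or 0.2. Leaving out each replicate in turn gave 0 to 2131 called and 799 to 6961 at an unadjusted p under 0.05, with 2131 and 6961 both without replicate 4. The actin covariate gave 995 called and 6047 at an unadjusted p under 0.05. With replicate 4 also left out, an alternative chosen after seeing the data, it gave 1660 and 5814, and 998 of the 1660 were called without the covariate. Against 2249 in the paired fit, the fit with no replicate block had 872 at an unadjusted p under 0.05, all 53 arrays in 8 groups without a block 946, probe sets above the median mean 1452, and array weights 6227. The filter tests fewer probe sets by construction, and for the other counts the cause was not tested.

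Of 1638 values for 110 named genes, 1484 kept their direction and their side of the threshold, 123 newly passed (67 of them without replicate 4) and 31, for 17 genes, changed sign. With each replicate left out in turn, the log2 difference ran from -0.0189 to 0.724 for Prf1, -0.125 to 0.231 for Klrd1, -0.313 to 0.0341 for Ncr1, -0.0638 to 0.352 for Il1b, -0.11 to 0.0744 for Il1rn, -0.77 to 0.395 for Ccl2, -0.255 to 0.29 for Akr1b8, -0.392 to 0.50 for Gimap1, -0.0738 to 0.116 for Gimap6, -0.0745 to 0.0401 for Gimap7, -1.08 to 0.00158 for Slc7a5, -1.39 to 0.225 for Slc4a1, -0.0561 to 0.552 for Ctsl, -0.0483 to 0.616 for Il18, -0.032 to 0.461 for Ddit3, -0.534 to 0.611 for Sqstm1 and -0.0903 to 0.534 for Rps24. Signs also turned with array weights for Klrd1 (0.183), Ccl2 (0.25), Akr1b8 (0.189), Gimap1 (0.326) and Sqstm1 (-0.323), with the actin covariate for Klrd1 (0.0279), Akr1b8 (0.00745) and Gimap1 (0.0467), and with quantile normalisation for Gimap7 (0.0101). These genes did not pass with all pairs, and the cause was not tested. The 30 list medians moved by more than the spread between pairs in 14 of 450 values. With 4 pairs the median 95% interval of a gene reached 0.39 log2 units to each side.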
